A study of Mus musculus with 4 samples.

Results

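The genes described here make cholesterol and fatty acids: 33 genes of 24453 in the files, picked by symbol from textbook pathways with earlier results of these data known. They comprise 19 enzymes that lead from acetyl-CoA to cholesterol, 5 genes that regulate the pathway or carry sterol inside the cell, and 9 enzymes that make, lengthen or desaturate fatty acids. The list does not cover every step of either pathway. All 33 passed the filter on low counts and were tested. RNA was measured on embryonic day 16 in the epithelium of the front of the mouse tongue, in cells sorted for the epithelial surface protein EpCAM. There were 2 libraries labelled Ring1a/b 2KO and 2 labelled control. The 2KO genotype is Ring1a-/- Ring1bfl/fl K14-Cre+: Ring1 is deleted in the germline, while Rnf2, also called Ring1b, is floxed and removed only where the keratin 14 promoter drives Cre, that is, in basal keratinocytes and their progeny. The alleles of the control embryos are not given in the labels, and neither is whether a library pools several embryos. Ring1 and Rnf2 encode the catalytic subunits of Polycomb repressive complex 1, a repressor of developmental genes; the comparison asks what loss of both does in tongue epithelium.

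Cholesterol is made in the cytoplasm and endoplasmic reticulum from acetyl-CoA, by way of mevalonate, farnesyl diphosphate, squalene and lanosterol. Most enzymes of the route, and many of fatty acid synthesis, are transcribed under the SREBP factors encoded by Srebf2 and Srebf1. Scap escorts these factors out of the endoplasmic reticulum when sterol is scarce, and Insig1 holds them back when sterol is plentiful. In stratified epithelia both lipids also feed the barrier laid down by the upper layers.

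The libraries labelled 2KO held 18039767 and 20545262 counts, and the control libraries 20624055 and 16256569. The genes meant to be lost did not show lower counts. Ring1 had 16.8 and 15.0 CPM (counts scaled to library size, with TMM factors) in 2KO-labelled libraries, against 9.02 and 8.57 CPM in control (log2 fold change 0.85, edgeR adjusted p = 0.101). Rnf2 had 62.9 and 62.4 CPM in 2KO-labelled libraries, against 34.0 and 51.3 CPM in control (log2 fold change 0.56, edgeR adjusted p = 0.126). A count over the whole gene does not show the loss of part of it, and which exons are floxed is not stated, so these values leave the genotype unchecked. The ribosomal RNA precursor Rn45s took 22.9% and 20.2% of counts in 2KO-labelled libraries and 16.7% and 15.3% in control; without it and the abundant RNAs Malat1 and Lars2 the same 7 members were called. The sorted cells carried the basal keratinocyte markers: Krt5 and Krt14 summed with 7 others to 6852 and 6586 FPKM (fragments per kilobase, scaled to depth) in 2KO-labelled libraries, against 9281 and 7819 FPKM in control. Of these 9 markers 3 fell, beside 4.92% of all genes tested, and none rose (median -0.38). Krt5 and Krt14 were among the 3 (log2 fold changes -0.45 and -0.72, adjusted p = 0.0392 and 0.0248 in edgeR). The part of these markers in the lower sterol enzyme levels was not tested. Whether the libraries of a group stem from different embryos is not stated, so the p-values rest on library-to-library spread that could be technical.

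Of the 19 enzymes of the sterol route 7 fell in the libraries labelled 2KO, while none of the 9 fatty acid enzymes or 5 regulators and carriers was called. Among the 33, the test called 7 lower and 0 higher, and 26 missed the threshold. The 7 were Hmgcs1, Idi1, Idi2, Fdps, Fdft1, Lss and Msmo1. At an unadjusted p under 0.05 in edgeR there were 14 of the 33, beside 27.7% of all genes tested. All 14 had negative values, and 13.2% of all genes tested had both a negative value and such a p. Beyond the 7 called they were Acat2, Mvk, Cyp51, Sc5d, Insig1, Elovl6 and Scd2. DESeq2 and limma-voom called none of the 33 higher either. Calls are at an adjusted p under 0.05 in edgeR's quasi-likelihood test over 15336 genes, of which 4.92% were called lower and 7.00% higher. Of the 19 sterol enzymes 18 had a negative log2 fold change, beside 49.6% of all genes tested. Their median was -0.58 on the log2 scale, against 0.0065 over all genes tested. Both 2KO-labelled libraries lay below both control libraries for 13 of the 19, beside 28.7% of all genes tested. The groups were apart in either direction for 21 of the 33 genes, beside 57.7% of all. Summed over the 19 enzymes the level was 285 and 299 FPKM in 2KO-labelled libraries, against 401 and 376 FPKM in control. In RNA from sorted cells, fewer cells of a type and less RNA per cell cannot be told apart.

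**Figure D1:**
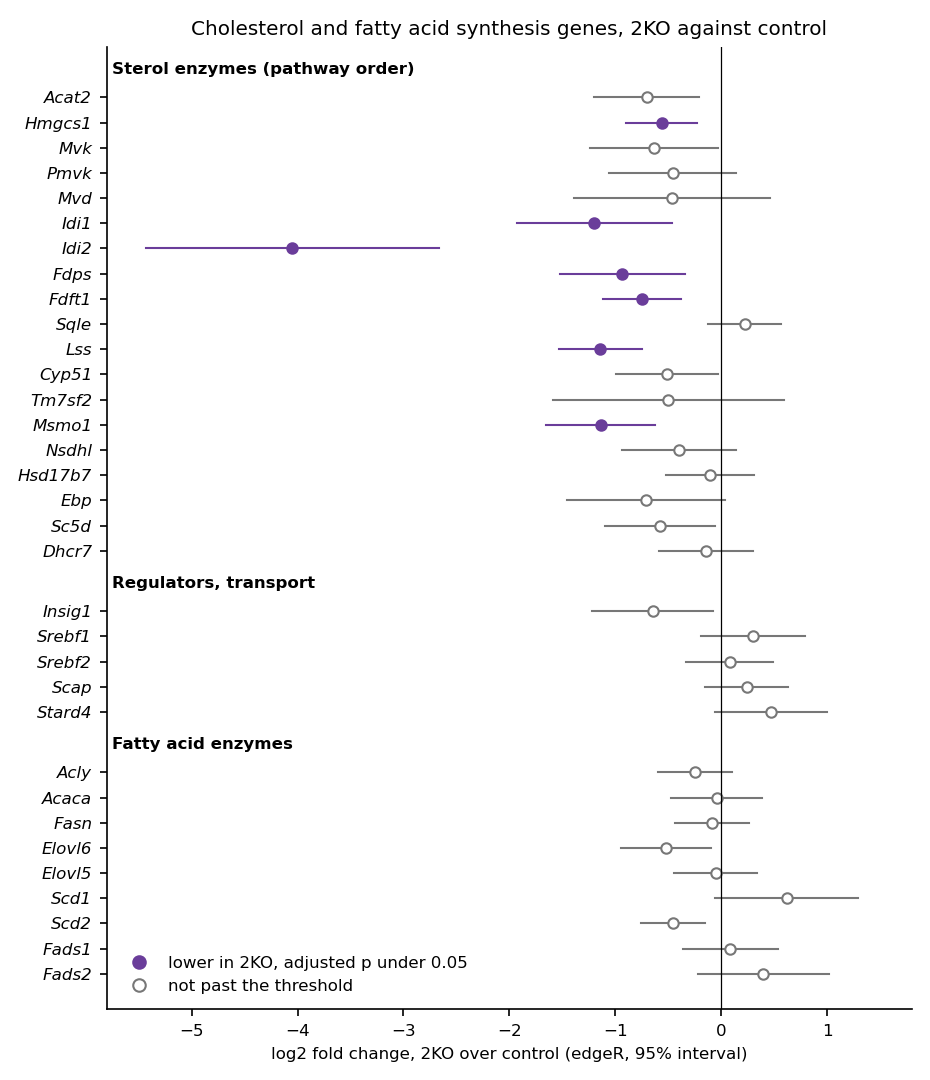
Log2 fold change of each of the 33 genes, 2KO-labelled over control libraries (horizontal axis), with 2 libraries per group. Bars are 95% intervals derived from the F statistic of the edgeR test, and filled points passed an adjusted p of 0.05. The 18 sterol enzymes other than Sqle sit left of 0, Idi2 farthest at -4.05, while the 9 fatty acid enzymes lie on both sides.

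The calls differed in how firmly they stood. Idi2, Lss and Msmo1 stayed lower with an adjusted p under 0.05 whichever of the 4 libraries was left out, with adjusted p up to 0.00788, 0.00476 and 0.0347 in edgeR. Fdft1 lost its call without 2KO replicate 1 (adjusted p = 0.0681 in edgeR). Hmgcs1 and Idi1 kept theirs in 1 of the 4 leave-one-out fits, the fit without control replicate 2. Fdps lost its call without 2KO replicate 1 (adjusted p = 0.269) and without control replicate 1 (adjusted p = 0.0741), both in edgeR. Upper-quartile scaling put Idi1 at the threshold and Fdps above it (adjusted p = 0.0544 in edgeR). An offset for GC content and transcript length, added after the data were seen, also ended the calls of Hmgcs1, Idi1 and Fdps, at log2 fold changes of -0.31, -0.91 and -0.87 (adjusted p = 0.236, 0.112 and 0.0609 in edgeR). Among the 19 sterol enzymes sign was steadier than the call, and 16 were negative in all 16 alternative analyses. The exceptions were Sqle, positive in all 16, and Dhcr7 and Hsd17b7. Over the 33 members 9 changed sign under at least 1 alternative: Dhcr7, Hsd17b7, Srebf1, Srebf2, Scap, Acaca, Fasn, Elovl5 and Fads1.

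The promoters of 5 of the 7 called genes are printed here because the called genes fell together. The promoter table held no entry for Fdps and Fdft1. Idi2, which changed most, stands apart from the other 4 printed genes in sequence. Each window runs from 250 bases before to 50 bases after the annotated start (RefSeq, build GRCm38.p6), written along the gene's own strand. Capitals mark the letters TCACNCCAC, a core of the sterol regulatory element bound by SREBP factors, and CCAAT, the box bound by NF-Y, each on either strand (CCAAT on the opposite strand reads ATTGG); no marked matches overlap.
Hmgcs1, chr13:119690101-119690400, plus strand: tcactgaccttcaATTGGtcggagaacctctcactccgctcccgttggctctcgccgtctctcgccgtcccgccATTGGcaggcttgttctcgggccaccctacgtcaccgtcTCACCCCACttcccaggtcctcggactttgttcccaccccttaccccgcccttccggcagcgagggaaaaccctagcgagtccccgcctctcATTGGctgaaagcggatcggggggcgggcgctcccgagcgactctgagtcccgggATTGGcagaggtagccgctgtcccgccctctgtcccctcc
Idi1, chr13:8885356-8885655, plus strand: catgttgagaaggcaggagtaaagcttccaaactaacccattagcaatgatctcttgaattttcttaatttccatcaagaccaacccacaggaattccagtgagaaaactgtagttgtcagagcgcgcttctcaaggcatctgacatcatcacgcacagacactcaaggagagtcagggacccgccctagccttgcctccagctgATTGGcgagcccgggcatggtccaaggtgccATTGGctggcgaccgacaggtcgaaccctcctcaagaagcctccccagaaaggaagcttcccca
Idi2, chr13:8952613-8952912, plus strand: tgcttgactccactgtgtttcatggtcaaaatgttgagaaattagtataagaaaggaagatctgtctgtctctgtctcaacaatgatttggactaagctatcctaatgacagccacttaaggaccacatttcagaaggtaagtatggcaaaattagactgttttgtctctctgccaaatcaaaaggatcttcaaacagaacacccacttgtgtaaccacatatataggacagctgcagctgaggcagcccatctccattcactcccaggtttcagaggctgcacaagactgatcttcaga
Lss, chr10:76531355-76531654, plus strand: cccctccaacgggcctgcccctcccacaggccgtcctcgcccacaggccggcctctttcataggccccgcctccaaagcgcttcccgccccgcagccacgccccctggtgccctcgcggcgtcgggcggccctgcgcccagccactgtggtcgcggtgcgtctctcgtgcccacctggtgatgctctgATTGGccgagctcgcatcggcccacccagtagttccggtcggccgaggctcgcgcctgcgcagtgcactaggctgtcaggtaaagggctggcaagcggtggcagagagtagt
Msmo1, chr8:64733529-64733828, minus strand: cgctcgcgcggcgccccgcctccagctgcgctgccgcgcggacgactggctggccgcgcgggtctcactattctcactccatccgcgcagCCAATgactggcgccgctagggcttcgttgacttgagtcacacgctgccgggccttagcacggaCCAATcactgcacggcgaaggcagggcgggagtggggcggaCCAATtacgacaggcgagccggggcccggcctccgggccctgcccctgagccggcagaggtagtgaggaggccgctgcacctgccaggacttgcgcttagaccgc

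Of the 5 windows, Hmgcs1 held TCACCCCAC, 137 to 129 bases before the start, and 4 CCAAT boxes. Msmo1 held 3 CCAAT boxes, Idi1 held 2, Lss held 1 and Idi2 held none. The Idi2 window had no CG dinucleotide and 42.0% GC, whereas the windows of Idi1, Hmgcs1, Lss and Msmo1 held 9, 26, 29 and 35 CG dinucleotides. Of the 33 genes, 26 had an entry in the promoter table, with 32 windows. TCACNCCAC occurred in 1 of these 26 genes, beside 1.44% of all 27025 genes in the table. CCAAT occurred in 76.9% of the 26 genes and in 41.1% of all, and GGGCGG, the Sp1 box, in 76.9% and 38.2%. CACGTG, an E box, occurred in 23.1% and 8.09%. Each was searched on both strands by exact letters, so a gene without a match may still hold a variant of the element. The windows of these genes were also richer in GC than those of the table, with medians of 61.8% and 52.7%, and the part of GC content in these shares was not tested. A match to these short strings is a description of the letters, not a site shown to be bound.

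In the mevalonate arm, from acetyl-CoA to farnesyl diphosphate, 4 of 8 enzymes fell and the other 4 had negative fold changes. Acat2, the thiolase that joins the first acetyl units, had 20.9 and 24.4 CPM in 2KO-labelled libraries, against 34.9 and 39.0 CPM in control (log2 fold change -0.71, adjusted p = 0.0671). The groups did not overlap, but the difference did not pass. Acat3, a near copy that shares 45.9% of the 50-base windows of the Acat2 transcript, had 46 and 36 counts in 2KO-labelled libraries, against 32 and 38 in control. Hmgcs1, the synthase that makes HMG-CoA, had 149.9 and 151 CPM in 2KO-labelled libraries, against 234 and 211 CPM in control. Its 2KO-labelled libraries were nearly equal and both lay below control (log2 fold change -0.56 with a standard error of 0.151, adjusted p = 0.0350).

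The kinases and the decarboxylase that turn mevalonate into isopentenyl diphosphate did not pass. Mvk had 14.5 and 23.0 CPM in 2KO-labelled libraries, against 27.6 and 30.6 CPM in control (95% interval of the log2 fold change -1.24 to -0.028). Pmvk had 20.0 and 29.9 CPM in 2KO-labelled libraries, against 40.2 and 28.5 CPM in control, so its groups overlapped (interval -1.06 to 0.14). Mvd, the decarboxylase, was counted least of the 3, at 5.95 and 5.79 CPM in 2KO-labelled libraries, against 7.55 and 8.63 CPM in control (interval -1.39 to 0.46).

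Idi2 changed more than any other gene of the list. Idi1 and Idi2 both encode isopentenyl diphosphate isomerases, which convert isopentenyl diphosphate into its reactive isomer, and they lie close together on chromosome 13 (Idi1 at 8885501 to 8892451, Idi2 at 8952863 to 8960945, mm10). Idi2 had 0.624 and 0.643 CPM in 2KO-labelled libraries, against 14.8 and 6.34 CPM in control. The control libraries differed from each other by more than the 2KO-labelled ones, yet both stood far above them. The log2 fold change was -4.05 with a standard error of 0.627 (95% interval -5.43 to -2.67, adjusted p = 0.00236), a 16.5-fold lower level. Without control replicate 1 the log2 fold change was -3.29 (adjusted p = 0.00788 in edgeR), and on log2(FPKM + 1) it was -2.09 in limma. It was among the lowest 0.222% of all genes tested by fold change. Idi1 had 7.77 and 8.21 CPM in 2KO-labelled libraries, against 22.4 and 14.4 CPM in control (log2 fold change -1.20, standard error 0.332, adjusted p = 0.0395). On the FPKM scale, which divides by length and allows the pair to be compared, Idi2 made up 3.67% and 9.31% of their summed level in 2KO-labelled libraries, against 51.3% and 41.3% in control. The 2KO-labelled shares rest on 11 and 13 Idi2 counts. Idi2 FPKM there were 0.0777 and 0.237 although its CPM were nearly equal. In human tissue the second isomerase gene is known mainly from skeletal muscle. Here 11 skeletal muscle markers summed to 18.3 and 29.5 FPKM in 2KO-labelled libraries and to 19.3 and 109 FPKM in control replicates 1 and 2. The part of muscle RNA in the Idi2 level was not tested.

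Fdps, which makes farnesyl diphosphate, had 12.8 and 18.0 CPM in 2KO-labelled libraries, against 31.5 and 27.2 CPM in control (log2 fold change -0.93, standard error 0.267, adjusted p = 0.0443). Its libraries were apart, but 86.4% of the 50-base windows of its transcript recur in transcripts of 8 other annotated genes, so its counts are uncertain. The same share was 27.6% for Idi2, 21.3% for Idi1 and 10.85% for Fdft1, and 0 for Hmgcs1, Lss and Msmo1.

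At the squalene steps 2 of 3 enzymes fell. Fdft1, squalene synthase, had 69.4 and 72.4 CPM in 2KO-labelled libraries, against 111 and 127 CPM in control (log2 fold change -0.75, standard error 0.167, adjusted p = 0.0165). Exons of Fdft1 overlap those of Ctsb on the opposite strand, and the strand setting of the counting is not given in the sources used here. Hmgcs1, Idi1, Lss and Cyp51 likewise overlap genes on the opposite strand, so reads of the partners could be mixed in. Sqle, the epoxidase that acts next and a rate-limiting step, had 150.7 and 139.9 CPM in 2KO-labelled libraries, against 130.3 and 119 CPM in control. Its libraries were ordered opposite to those of every other sterol enzyme whose groups did not overlap, but the difference did not pass (log2 fold change 0.22, 95% interval -0.12 to 0.56, adjusted p = 0.403). Lss, which closes the ring to lanosterol, had 42.5 and 49.8 CPM in 2KO-labelled libraries, against 106 and 97.6 CPM in control. Its groups were far apart (log2 fold change -1.14, standard error 0.179, adjusted p = 0.00248, 2.21-fold lower). Sqle took 21.9% and 18.65% of the summed FPKM of the 19 sterol enzymes in 2KO-labelled libraries, against 12.5% and 12.0% in control.

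**Figure D2:**
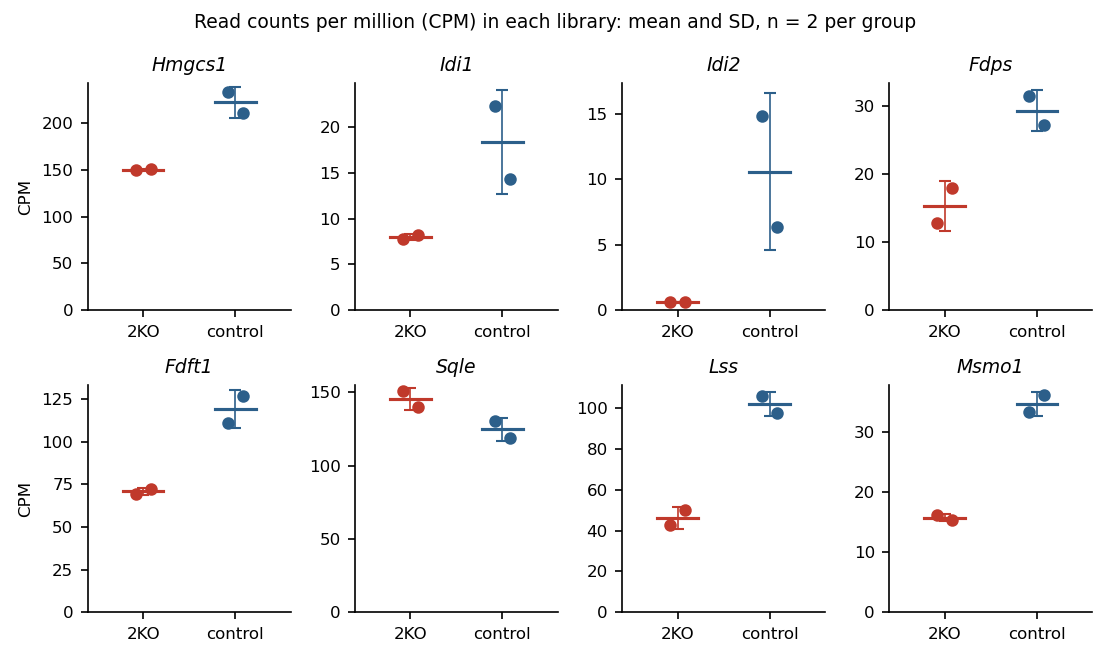
CPM, counts scaled to library size (vertical axes, each from 0) of the 7 sterol enzymes called lower and of Sqle in each library, 2KO-labelled left and control right; points are libraries, lines the mean and bars the SD (n = 2). For the 7 called genes both 2KO-labelled libraries lie below both control libraries, and for Sqle both lie above.

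After lanosterol, 1 of 8 enzymes fell. Msmo1, the oxidase that starts the removal of the methyl pair left on the ring after Cyp51 has acted, had 16.2 and 15.3 CPM in 2KO-labelled libraries, against 33.2 and 36.0 CPM in control. Replicates were close in both groups (log2 fold change -1.14, standard error 0.235, adjusted p = 0.0112). Cyp51, the demethylase that starts this stretch, had 94.6 and 63.9 CPM in 2KO-labelled libraries, against 129 and 97.2 CPM in control. Its libraries varied within both groups and the difference did not pass (log2 fold change -0.52, adjusted p = 0.154), although it was called without 2KO replicate 1 (adjusted p = 0.0292 in edgeR) and without control replicate 2 (adjusted p = 0.0224 in edgeR). Ebp, a sterol isomerase, and Sc5d, a desaturase, had log2 fold changes of -0.71 and -0.58 with groups that did not overlap. Nsdhl, a dehydrogenase that acts beside Msmo1, and Tm7sf2, a reductase, had -0.40 and -0.50 with groups that overlapped. Hsd17b7 and Dhcr7, the reductase of the last step, were nearest to 0, at -0.11 (95% interval -0.52 to 0.31) and -0.14 (-0.59 to 0.30).

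The levels of the sterol enzymes spanned a wide range in both groups. On the FPKM scale Sqle was highest in the 2KO-labelled libraries at 59.1 ± 4.70, followed by Hmgcs1 at 41.3 ± 0.985 and Pmvk at 30.6 ± 9.91 (SD, n = 2). In control Hmgcs1 was highest at 52.1 ± 7.46, with Sqle at 47.4 ± 3.49 and Pmvk at 43.1 ± 4.98, which overlap within their spread. The lowest were Idi2 at 0.158 ± 0.113 in the 2KO-labelled libraries and Idi2, Tm7sf2 and Idi1 at 4.22 ± 2.50, 4.31 ± 1.28 and 4.59 ± 1.56 in control, again within their spread.

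**Figure D3:**
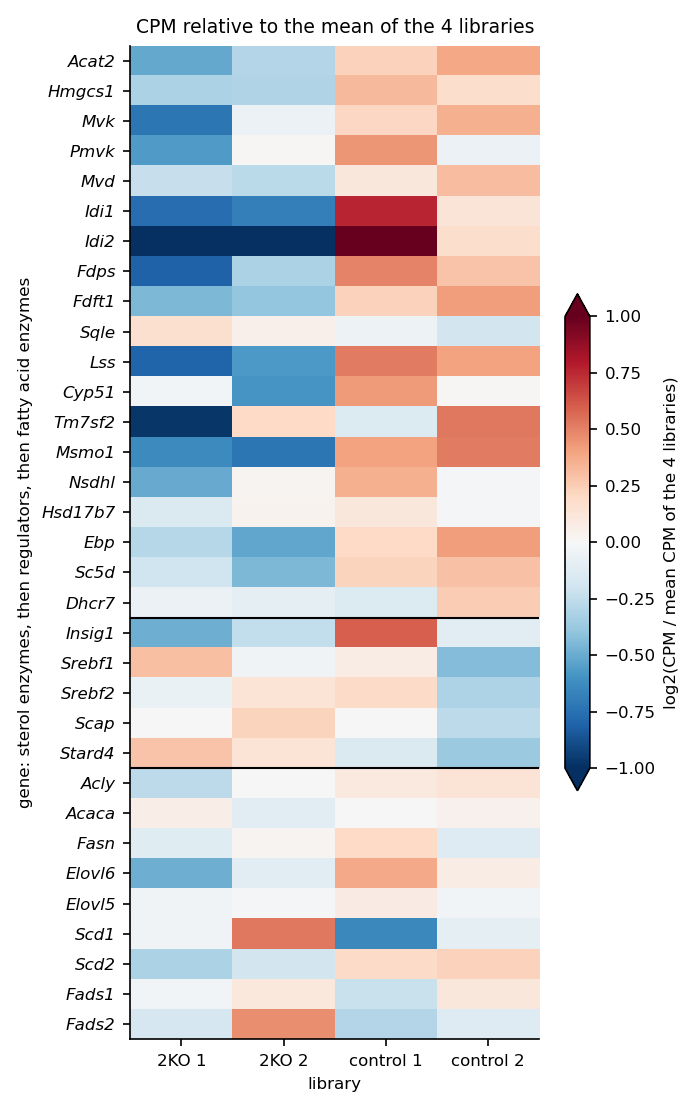
Colour shows log2 of each library's CPM over the gene's mean CPM of the 4 libraries, with genes in pathway order down the page and 2KO-labelled libraries on the left; the scale is capped at 1 in each direction. Sterol enzymes at the top are mostly blue (below the mean) in 2KO-labelled libraries and red in control, while the regulators and fatty acid enzymes below the lines show no shared order.

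None of the regulators was called. Srebf2, the factor that acts mainly on sterol genes, had 170.1 and 196 CPM in 2KO-labelled libraries, against 203 and 144 CPM in control. The control libraries lay on both sides of the 2KO-labelled ones, and the interval of the log2 fold change was -0.33 to 0.49. Srebf1, which acts more on fatty acid genes, had 63.5 and 50.3 CPM in 2KO-labelled libraries, against 54.3 and 38.1 CPM in control, with overlapping groups and an interval of -0.19 to 0.79. Insig1, itself a target of these factors as well as their brake, had 25.6 and 30.3 CPM in 2KO-labelled libraries, against 54.4 and 33.2 CPM in control. The groups did not overlap, but control replicate 2 lay near the 2KO-labelled libraries (log2 fold change -0.65, adjusted p = 0.131), and without it Insig1 was called (adjusted p = 0.00767 in edgeR).

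Scap and the sterol carrier Stard4 had positive values that did not pass. Scap had 86.88 and 101 CPM in 2KO-labelled libraries, against 86.86 and 72.1 CPM in control, so the closest libraries were nearly equal. Stard4 had 29.1 and 26.2 CPM in 2KO-labelled libraries, against 21.6 and 18.4 CPM in control (log2 fold change 0.47, 95% interval -0.063 to 1.00).

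The enzymes that make palmitate showed no call. Acly, which supplies cytoplasmic acetyl-CoA to both pathways, had 156 and 187 CPM in 2KO-labelled libraries, against 201 and 207 CPM in control (log2 fold change -0.25, 95% interval -0.59 to 0.098). Acaca, the carboxylase that commits acetyl-CoA to fatty acids, had 47.1 and 41.7 CPM in 2KO-labelled libraries, against 45.1 and 46.4 CPM in control. On the deposited FPKM scale the order differed, with Acaca at 3.99 and 3.66 in 2KO-labelled libraries and 3.06 and 2.92 in control; 52.6% of its 50-base windows recur in other transcripts. Fasn, fatty acid synthase, had 259.9 and 289 CPM in 2KO-labelled libraries, against 324 and 258 CPM in control, with overlapping groups (log2 fold change -0.086, interval -0.44 to 0.27). With the offset for GC content and length Fasn was called lower, at -0.86 (adjusted p = 0.00391 in edgeR).

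None of the 6 elongases and desaturases was called; 3 had negative and 3 positive values. Scd2, the most abundant gene of the list at 84.3 ± 2.96 FPKM in 2KO-labelled libraries and 111 ± 2.53 FPKM in control (SD, n = 2), had 379 and 417 CPM in 2KO-labelled libraries, against 540.1 and 554 CPM in control. The groups were apart and the adjusted p was 0.0542 in edgeR (log2 fold change -0.46), 0.0195 in DESeq2 and 0.0272 in limma-voom. Its paralog Scd1, which like Scd2 desaturates stearoyl-CoA, had 18.3 and 27.0 CPM in 2KO-labelled libraries, against 12.0 and 17.6 CPM in control (log2 fold change 0.62, 95% interval -0.056 to 1.29). Scd1 thus took 4.55% and 6.10% of the summed FPKM of the pair in 2KO-labelled libraries, against 2.08% and 2.95% in control. Elovl6, which lengthens palmitate, had 63.9 and 83.0 CPM in 2KO-labelled libraries, against 117 and 94.5 CPM in control (log2 fold change -0.52, adjusted p = 0.103). Elovl5, which lengthens polyunsaturated chains, was nearly level, at -0.053 (interval -0.44 to 0.34). The desaturases Fads1 and Fads2, which make polyunsaturated fatty acids, had log2 fold changes of 0.085 and 0.40 with overlapping groups.

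Over the 9 fatty acid enzymes none was called, 6 had negative and 3 positive log2 fold changes, and the median was -0.053, beside -0.58 for the sterol enzymes and 0.24 for the 5 regulators and carriers. Their summed level was 215 and 238 FPKM in 2KO-labelled libraries, against 262 and 262 FPKM in control, while the regulators summed to 103 and 107 FPKM in 2KO-labelled libraries, against 112 and 85.0 FPKM in control. The gap between sterol and fatty acid enzymes was not tested as such. It narrowed with the offset for GC content and length, to medians of -0.55 and -0.33. With that offset Srebf1, Srebf2 and Scap turned negative, at -0.052, -0.29 and -0.17. Insig1 was at -0.47 and Stard4 at 0.60 there, so the side on which the regulators lay depended on the setting.

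A further 4 lists of lipid genes set the members in context, and most of their genes did not pass. Over all genes tested 7.00% were called higher and 4.92% lower, 11.9% either way. No list was tested against these shares. Of 20 genes that regulate, transport or modify sterols, 1 rose and none fell (median -0.057). It was Soat1, which stores cholesterol as esters, with 38.6 and 30.8 CPM in 2KO-labelled libraries, against 12.1 and 16.7 CPM in control (log2 fold change 1.27, adjusted p = 0.0118). Of 12 genes of the isoprenoid branches, which draw on farnesyl diphosphate, 1 fell and none rose (median -0.31). It was Fnta, a prenyltransferase subunit (log2 fold change -0.72, adjusted p = 0.0399 in edgeR). The call was lost with upper-quartile scaling (adjusted p = 0.0522 in edgeR) and with the GC content and length offset (0.134 in edgeR). It was also lost without 2KO replicate 1 (log2 fold change -0.62) and without control replicate 2 (log2 fold change -0.52).

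Of 27 tested genes of other fatty acid and glycerolipid steps, from a list of 29, 3 fell and 1 rose (median -0.16). Acsl1, an acyl-CoA ligase, had 65.5 and 67.4 CPM in 2KO-labelled libraries, against 196 and 177 CPM in control. Replicates were close and the groups far apart (log2 fold change -1.49, adjusted p = 0.000298). Acsl5, a related ligase, and Mid1ip1, a regulator of acetyl-CoA carboxylase, fell with log2 fold changes of -0.77 and -0.96 (adjusted p = 0.0212 and 0.0338). Acsl5 lost its call without 2KO replicate 1 (0.136), and Mid1ip1 without 2KO replicate 1 (0.107) or 2KO replicate 2 (0.129), all in edgeR. The gene that rose was Elovl2, an elongase of long polyunsaturated chains, with 12.31 and 12.32 CPM in 2KO-labelled libraries, against 4.36 and 1.70 CPM in control (log2 fold change 2.01, adjusted p = 0.0262). The control libraries differed, and the log2 fold change was 2.87 without control replicate 1 and 1.5 without control replicate 2.

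Of 16 genes of fatty acid oxidation, which breaks down what the members build, 3 fell and 1 rose (median -0.21). Cpt1a, which admits fatty acids to the mitochondrion, had 57.4 and 64.9 CPM in 2KO-labelled libraries, against 14.9 and 12.3 CPM in control. It was the greatest rise among the lipid genes called (log2 fold change 2.17, adjusted p = 0.000224). The acyl-CoA dehydrogenases Acadm and Acadl and the thiolase Acaa2 fell, at -0.97, -1.16 and -0.64 (adjusted p = 0.0194, 0.0302 and 0.0363). Acadm lost its call without 2KO replicate 1 (0.0651), Acadl without 2KO replicate 2 (0.154), and Acaa2 without 2KO replicate 1 (0.195), 2KO replicate 2 (0.0825) or control replicate 1 (0.0875), all in edgeR. With the GC content and length offset all 3 missed the threshold (adjusted p = 0.0566, 0.0791 and 0.0842 in edgeR), while Cpt1a was called there. On filtered FPKM values, of the 10 genes called in these 4 lists, limma called Cpt1a, Acsl1 and Mid1ip1.

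**Figure D4:**
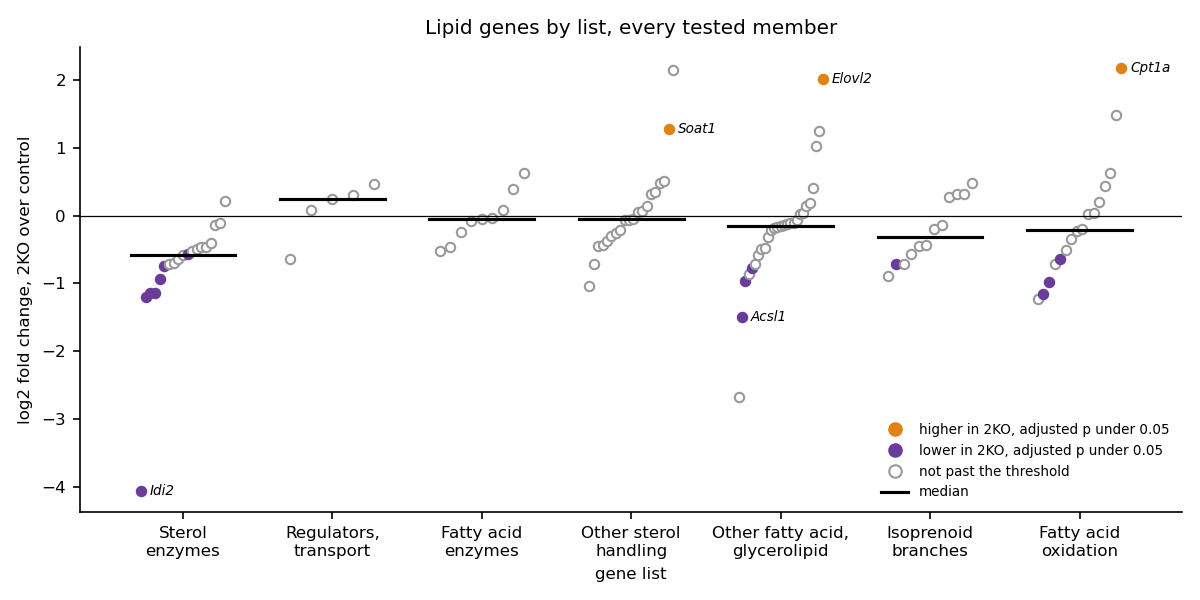
Log2 fold change (vertical axis, 2KO-labelled over control) of every tested gene in the 3 groups of members and the 4 further lipid lists; each point is a gene, bars are list medians and filled points passed an adjusted p of 0.05. The sterol enzymes hold 7 of the points called lower and have the lowest median, -0.58, while Cpt1a, Elovl2 and Soat1 are the points called higher.

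Markers of other cells and states moved in the same libraries, and their part in the lower sterol enzyme levels was not tested. Over all genes tested 4.92% were called lower and 7.00% higher. Of 14 tested markers of suprabasal keratinocytes, the differentiating upper layers, 8 fell and 1 rose (median -1.53), and the 15 listed summed to 1053 and 441 FPKM in 2KO-labelled libraries, against 3226 and 1957 FPKM in control. Of 12 proliferation genes 4 fell and all had negative values (median -0.48), with sums of 312 and 324 FPKM in 2KO-labelled libraries, against 432 and 425 FPKM in control. Of 10 endothelial markers none was called (median 1.20), with sums of 16.7 and 24.5 FPKM in 2KO-labelled libraries, against 10.9 and 8.27 FPKM in control. Of 10 immune markers 6 were tested and 1, Cd68, rose, with sums of 37.4 and 33.6 FPKM in 2KO-labelled libraries, against 14.6 and 17.4 FPKM in control. Of 9 adipocyte markers 5 were tested, 4 of them with positive values (median 1.59). Lep had no count in any library and Adipoq and Plin1 had under 10 counts over all 4, and the 9 listed summed to 7.17 and 11.7 FPKM in 2KO-labelled libraries, against 4.94 and 2.92 FPKM in control. Among the 5 tested 1 rose: Pparg, a lipid-sensing nuclear receptor named after its values were seen, had 3.09 and 2.42 FPKM in 2KO-labelled libraries, against 0.0534 and 0.283 FPKM in control (adjusted p = 0.0193 in edgeR). Of 8 tested genes of sebaceous and other glands, from a list of 10, Soat1 rose and none fell, and Awat1 had no count. Of 11 skeletal muscle markers 1 rose and none fell (median -1.22), of 10 fibroblast markers 1 fell and none rose (0.19), and of 10 Schwann and neural markers 1 rose and 1 fell (0.029). Of 5 melanocyte and 8 erythroid markers in the files, 2 and 1 were tested, with no call, and 2 and 6 had no count.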

How the data were processed

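Per the submitters' processing notes, the tools were DESeq2 1.6.3, HTSeq 0.6.1, TopHat2 2.0.13 and Cufflinks 2.2.1, on mm10. Annotation, strandedness and the tool behind each file are not named in the labels or notes. The deposited files give whole-number counts per gene for each library and a table of FPKM values that the authors made, on cDNA amplified from a small amount of RNA and read as 100-nucleotide single reads, per the labels' protocols. Amplified reads are not independent molecules.

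The comparison of counts ran in edgeR 4.0.16 (R 4.3.3): filterByExpr (minimum count 10), TMM scaling, and the two-sided quasi-likelihood test of genotype over all 15336 genes tested, with Benjamini-Hochberg adjustment at 0.05. Adjusted p-values come from it where no other tool stands beside them. Standard errors were derived from the log2 fold change and the F statistic of that test, and intervals use them. The fit's biological coefficient of variation was 0.313. CPM use TMM-scaled library sizes; FPKM serve to compare levels between genes, for sums, for the levels of Acaca and Pparg, and in the limma alternatives. Alternatives were other scalings, filters, DESeq2 1.42.0, limma 3.58.1 (voom on counts, trend on log2(FPKM + 1) and log2(FPKM + 0.1)), a replicate block, 3 abundant RNAs left out, each library left out, and a loess offset on GC content and transcript length, chosen after seeing the data. The test was tried on simulated counts whose spread depended only on expression level. That trial does not vouch for the calls made here from 2 libraries per group. Positions and shared 50-base windows come from GENCODE M21 (GRCm38), in which all 33 symbols matched 1 gene each.

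The members and lists were chosen with earlier results of these data known. The text names all 33 members, the called genes of each lipid list, and Ring1 and Rnf2; marker genes named as called or at 0 were chosen after their values were seen. No value column was left unused.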

Additional observations from a re-analysis of the deposited data

How the results depend on the processing

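Of the 7 sterol enzymes called lower, 7 stayed lower with DESeq2 size factors, DESeq2, limma-voom, the 1 CPM filter, without Rn45s, Malat1 and Lars2, and with no filter on low counts, where 12 members were called. With upper-quartile scaling 5 were called. With the GC content and length offset 6 members were called, 4 of them among the 7. On FPKM values 3 were called with a pseudocount of 1 and 3 with 0.1 (Idi2, Lss and Msmo1), and 0 with no filter, with 9 members and 3764 genes at an unadjusted p under 0.05 in limma. Leaving out each library gave 4 to 10 members lower, with 4 without 2KO replicate 1, and none was called higher in any alternative. The numbers 1 and 2 do not pair the libraries in the labels, and deviations of same-numbered libraries correlated at -0.023; with a replicate block 8 members were called lower, Scd2 added, with no other change among the members.

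Over all genes, 1073 were higher and 754 lower. On FPKM values 493 were higher and 185 lower (72.7% higher, against 58.7% on counts) with a pseudocount of 1, 423 and 165 (71.9%) with 0.1, and 0 and 0 with no filter. With no filter on low counts 1242 were lower. Leaving out each library gave 839 to 1643 higher and 537 to 1104 lower; without control replicate 1 the 1643 was reached. The sterol median ranged from -0.79 to -0.60 when a library was left out. The fatty acid median was -0.0029 with upper-quartile scaling, 0.022 on log2(FPKM + 1) with or without a filter, 0.023 on log2(FPKM + 0.1), -0.33 with the GC content and length offset, and -0.10 to -0.040 when a library was left out. The cause was not tested. With 2 libraries per group, the regulators' intervals are wide, and a missed threshold does not show that they did not differ.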
